A study of Mus musculus with 8 samples.

Results

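Schwann cell and myelin transcripts were followed across 8 libraries of mouse hindlimb muscle, through the genes Sox10, Pmp22, Prx, Mbp, Mal, Ncmap and S100b. These 7 genes, of 55487 gene rows measured, were chosen by their role in nerve with their normalized counts in these libraries already seen, mouse 7 above the others, so their levels in the 8 mice are given as a description. All 8 mice were male C57BL/6J, labelled 10 weeks old, and formed 1 condition, Immobilization K14Q MOTS-c: casts immobilized both hindlimbs over 8 days, and the mice received K14Q MOTS-c intraperitoneally, 15 mg/kg/day split over 2 daily injections. MOTS-c is a short peptide encoded in mitochondrial DNA, and K14Q is a form of it with a changed amino acid. The sample labels name the muscle as vastus lateralis, whereas the study's methods name gastrocnemius. The study's other groups were not analysed here, so effects of the cast and of the peptide cannot be told apart in these values.

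Skeletal muscle carries branches of motor and sensory nerve. In these branches myelinating Schwann cells wrap large axons in stacked membrane, while other Schwann cells ensheathe small axons or cap the neuromuscular junction. The transcription factor SOX10 maintains the Schwann cell lineage and, together with EGR2, drives the genes of the myelin sheath. PMP22 and MBP are components of compact myelin, periaxin (Prx) ties the outer Schwann cell membrane to the basal lamina through DRP2 and dystroglycan, MAL is a raft-associated proteolipid, NCMAP is a membrane protein of non-compact myelin, and S100B is a calcium-binding protein of Schwann cell cytoplasm. Several of the genes are also transcribed elsewhere: Pmp22 in fibroblasts, Mal in epithelia and T cells, and the Mbp locus as golli transcripts outside myelin. In bulk tissue, fewer cells of a type and less RNA per cell cannot be told apart.

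The regulatory background of the genes is shown by promoter windows from RefSeq on GRCm38.p6, each reaching from 250 bases before a transcript start to 50 bases after it. Windows for 5 of the 7 genes were matched by symbol. Those printed belong to the most abundant gene per exon length (Pmp22), the gene that kept the steadiest proportion to Sox10 (Prx) and the pair that stood farthest above their medians in 1 mouse (Mal and Ncmap). Capitals mark the EGR core GTGGGNG, which was searched on both strands along with the SOX cores ACAAAG and ACAATG.
Pmp22, chr11:63128732-63129031, plus strand: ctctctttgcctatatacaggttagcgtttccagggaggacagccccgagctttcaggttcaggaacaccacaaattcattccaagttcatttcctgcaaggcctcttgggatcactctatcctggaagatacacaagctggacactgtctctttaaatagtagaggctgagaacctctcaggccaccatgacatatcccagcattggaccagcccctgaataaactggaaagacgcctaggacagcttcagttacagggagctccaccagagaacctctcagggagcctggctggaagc
Prx, chr7:27499074-27499373, plus strand: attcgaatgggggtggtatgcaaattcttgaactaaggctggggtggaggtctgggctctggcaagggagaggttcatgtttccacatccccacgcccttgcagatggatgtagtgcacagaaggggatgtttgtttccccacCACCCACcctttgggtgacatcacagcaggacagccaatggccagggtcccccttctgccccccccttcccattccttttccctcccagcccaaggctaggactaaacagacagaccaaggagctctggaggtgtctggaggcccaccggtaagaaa
Mal, chr2:127656646-127656945, minus strand: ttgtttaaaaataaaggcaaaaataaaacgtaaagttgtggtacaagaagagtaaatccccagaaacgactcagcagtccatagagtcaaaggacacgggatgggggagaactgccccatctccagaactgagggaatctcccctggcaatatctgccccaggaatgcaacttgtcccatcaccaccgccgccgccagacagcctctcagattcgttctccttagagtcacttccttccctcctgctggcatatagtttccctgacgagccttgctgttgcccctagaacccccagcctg
Ncmap, chr4:135398178-135398477, minus strand: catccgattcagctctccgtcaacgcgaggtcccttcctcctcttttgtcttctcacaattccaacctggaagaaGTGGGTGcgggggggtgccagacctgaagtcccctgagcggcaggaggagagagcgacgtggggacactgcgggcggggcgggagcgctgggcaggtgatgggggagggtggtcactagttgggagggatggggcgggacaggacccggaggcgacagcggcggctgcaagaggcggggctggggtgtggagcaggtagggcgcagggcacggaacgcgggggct
The EGR core stood 107 bases before the start of Prx, on the opposite strand, and 175 bases before the start of Ncmap. It was in these 2 of the 9 windows matched to the 5 genes, and in 31.6% of 32817 promoter windows of the same length. Ncmap has another window without the core, and Pmp22 has 3 others. The windows printed are those at the outer end of the annotated gene. Neither SOX core was in any of the 9 windows, against 18.7% of all windows for ACAAAG and 12.6% for ACAATG. A match of these letters is a description of the window, and no binding was measured.

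Expression was given as read counts per gene divided by 1 size factor per library, called normalized counts here. Each library held between 23985356 and 33012497 reads assigned to genes, and size factors ran from 0.906 to 1.20, so 1 read was worth about 1 normalized count. A gene was taken further when it averaged at least 10 reads per library, which 16498 genes and all 7 Schwann and myelin genes did. Fibre type genes, the markers of muscle itself, summed to 1751056 to 3713842 normalized counts per library. Oligodendrocyte genes, which mark central myelin, summed to at most 17.3 normalized counts, and 4 of their 7 genes had no read in any library. The keratinocyte and lung genes had none either.

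The lineage factor Sox10 was scarce and counted at 27.6, 31.3, 37.4, 31.9, 28.4, 30.3, 51.9 and 20.8 normalized counts in mice 1 to 8 (32.5 ± 9.13, SD, n = 8). Mouse 7 was highest and mouse 8 lowest, and the other 6 mice lay between 27.6 and 37.4. The counts rested on 19 to 47 reads, and the 95% Poisson interval of mouse 7 (from 38.1) overlapped that of mouse 3, the next highest. Poisson intervals cover counting error only. Sox10 lies on chr15:79154908-79165240 of GRCm38 by the GENCODE M21 annotation.

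Among the compact myelin genes, Pmp22 was counted at 1014, 1140, 850, 704, 863, 964, 1647 and 745 normalized counts (991 ± 301). Mouse 7 was 1.80 times the median of the 8 mice and 1.44 times the next mouse. Mbp stood at 738, 772, 968, 938, 626, 910, 1120 and 649 normalized counts (840 ± 172). Its highest value was again mouse 7, but only 1.33 times the median and 1.16 times mouse 3, the smallest margin of the 7 genes. With libraries scaled by their totals alone, mouse 3 instead of mouse 7 was highest for Mbp. For both genes the Poisson interval of mouse 7 lay above those of the other 7 mice under the deposited scaling.

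Periaxin, the scaffold of the outer sheath, had the lowest coefficient of variation over 8 mice after Mbp (22.4 and 20.4%). Without mouse 7 the order changed, with Mal lowest (11.5%) and Mbp highest (17.4%). Prx had 283, 276, 270, 247, 243, 253, 401 and 187 normalized counts (270 ± 60.6). Of the 8 values 6 fell between 243 and 283, with mouse 7 above and mouse 8 below, and mouse 7 was 1.53 times the median. An antisense gene, Gm15541, shares 300 bases with exons of Prx at a mean of 4.15 normalized counts, and strand use in the counting is not given in the sources used here.

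The membrane genes Mal and Ncmap departed most in a single mouse. Mal had 76.4, 69.2, 61.5, 68.2, 83.5, 66.5, 176 and 82.1 normalized counts (85.4 ± 37.2), and Ncmap had 30.8, 30.3, 30.7, 31.9, 32.1, 19.6, 68.4 and 27.4 (33.9 ± 14.5). Mouse 7 reached 2.41 times the median for Mal and 2.22 times for Ncmap, and for Ncmap it was 2.13 times the next mouse. In reads, mouse 7 gave 159 for Mal where the other mice gave 62 to 91, and 62 for Ncmap where they gave 20 to 37. S100b, the cytoplasmic marker, had 32.9, 27.0, 34.1, 22.0, 25.7, 26.4, 50.8 and 30.7 normalized counts (31.2 ± 8.87). Its highest value was 1.76 times the median, but with 20 to 46 reads its interval in mouse 7 (from 37.2) met that of another mouse (up to 46.7).

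**Figure D1:**
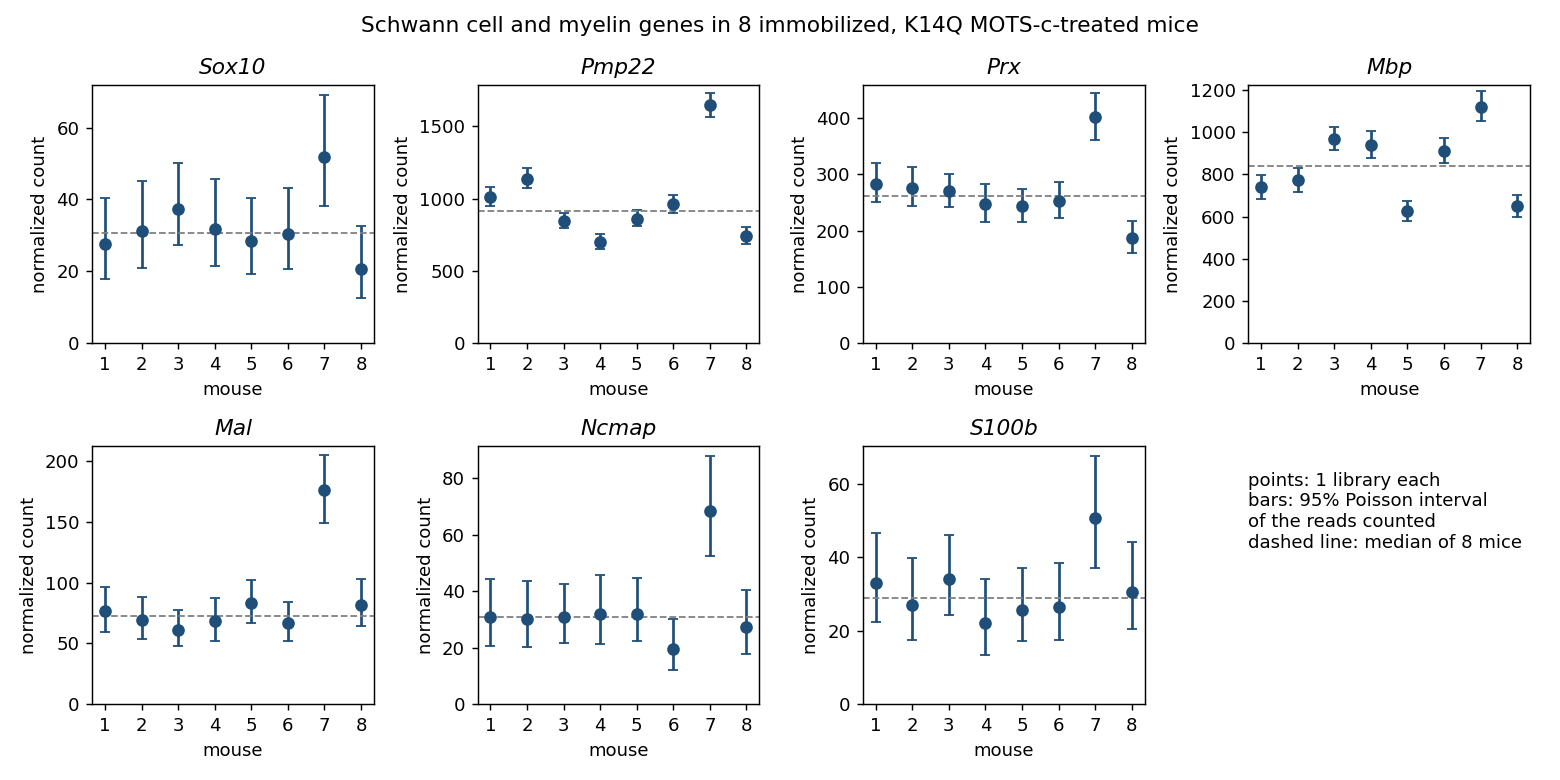
Normalized counts (vertical axes, from 0) of the 7 Schwann cell and myelin genes in mice 1 to 8 (horizontal axes), with 95% Poisson intervals of the reads as bars and the median of 8 mice as a dashed line. Mouse 7 was highest in every panel, from 1.33 times the median for Mbp to 2.41 times for Mal.

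The 7 genes were all highest in mouse 7. Of all 16498 genes, 1898 (11.5%) had their highest value there. Mouse 7 was both highest and at least 1.5-fold above the median for 6 of the 7 genes, against 1.92% of all genes by both conditions, and Mbp was the exception. As a further description, not a test, for 5 of them the gap from mouse 7 to the next mouse, divided by the range, passed Dixon's 95% limit for 8 samples, against 0.485% of all genes for mouse 7 as the highest and 6.07% for any mouse on either side. A coefficient of variation of at least 30% was found for Pmp22, Mal and Ncmap, against 16.5% of all genes. These shares are a background to the description, since the genes were listed with the values known. Leaving out mouse 7 brought the coefficient of variation from 30.3 to 17.1% for Pmp22, from 43.6 to 11.5% for Mal and from 42.9 to 15.3% for Ncmap. The genes were listed with mouse 7 high in view, so a fall was built into the choice. The share of all genes at 30% was not calculated without mouse 7. In those 7 mice counting error alone would give 3.35% for Pmp22, 11.8% for Mal and 18.7% for Ncmap. Over the 7 mice the spread of Sox10, Mal, Ncmap and S100b was 17.0, 11.5, 15.3 and 15.2%, beside counting errors of 18.4, 11.8, 18.7 and 18.9%. That of Pmp22, Prx and Mbp was 17.1, 12.8 and 17.4%, beside 3.35, 6.33 and 3.55%. Sox10, Mal, Ncmap and S100b had the fewest reads, 19 to 91 per mouse. The same comparison was not made over all genes, and a spread from 7 values is imprecise.

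Per kilobase of exon, which allows levels to be compared between genes, Pmp22 led with 421 ± 128 normalized counts per kb (SD, n = 8). Mbp followed with 99.2 ± 20.3 and Prx with 48.4 ± 10.9, and the ranges of these 3 genes over mice did not overlap. Mal had 30.7 ± 13.4, Ncmap 15.2 ± 6.53 and Sox10 10.6 ± 2.99 normalized counts per kb, and S100b, between Mal and Ncmap by its mean, ran from 14.8 to 34.2. From Prx down, each gene overlapped its neighbour in this order across mice, although Prx was above Mal within all 8 mice and S100b above Ncmap within all 8.

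How the genes moved together was described by Pearson's r of log2(normalized count + 1) over mice, with no p because the genes were chosen with values known and all share the same libraries. All 21 pairs were positive over 8 mice, with a mean r of 0.68 and a range of 0.33 to 0.92, and 17 pairs reached 0.5. Spearman's rho, which does not weigh the distance of mouse 7, averaged 0.34. Without mouse 7 the mean r was 0.03, with 11 pairs positive and a range from -0.95 to 0.78. The joint pattern of the 7 genes over all mice therefore rested on mouse 7.

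**Figure D2:**
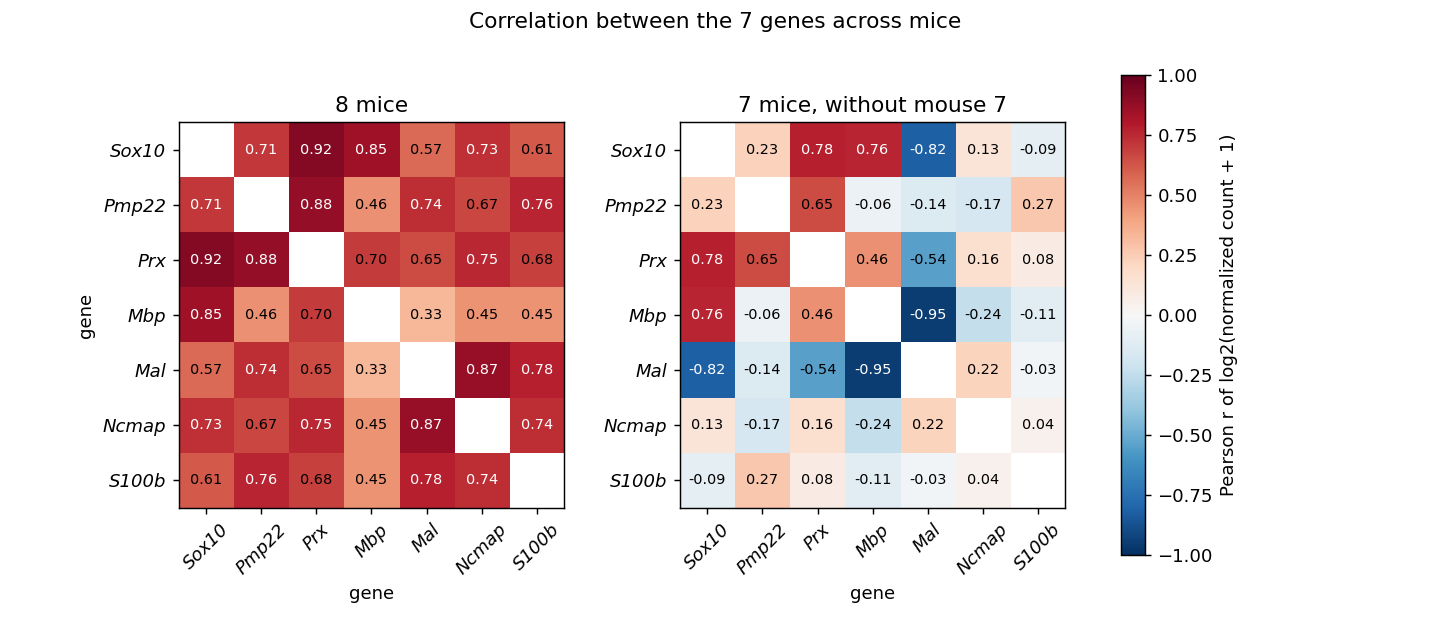
Pearson's r of log2(normalized count + 1) between each pair of the 7 genes (rows and columns), over 8 mice on the left and without mouse 7 on the right. The mean of the 21 values was 0.68 on the left and 0.03 on the right, where Sox10, Prx and Mbp stayed positive with each other and Mal was negative with all 3.

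Within the 7 remaining mice some pairs stayed positive, to be read beside the small spread of Sox10 and Mal there, which was no larger than counting error. Sox10 had r = 0.92 to Prx over 8 mice and 0.78 without mouse 7 (rho = 0.29), and 0.85 and 0.76 to Mbp (rho = 0.86 in the 7 mice), and Prx had 0.88 and 0.65 to Pmp22. The lowest of the 21 values over the 7 mice was that of Mal and Mbp, r = -0.95 (rho = -0.96), and it rests on 62 to 91 reads of Mal per mouse. In mouse 3 Mbp was at 968 and Mal at its lowest, 61.5 normalized counts, whereas in mouse 5 Mbp was at its lowest, 626, and Mal at 83.5. The ratio of Mal to Mbp accordingly ran from 0.0635 in mouse 3 to 0.157 in mouse 7, with 0.133 in mouse 5 and 0.126 in mouse 8. The ratio of Sox10 to Prx was the steadiest of the 21, at 0.0974 to 0.138, and mouse 7, with 0.129, lay inside the range of the other mice. Relative to Mbp, mouse 7 had more Mal than any other mouse, and relative to Prx its Sox10 was ordinary.

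**Figure D3:**
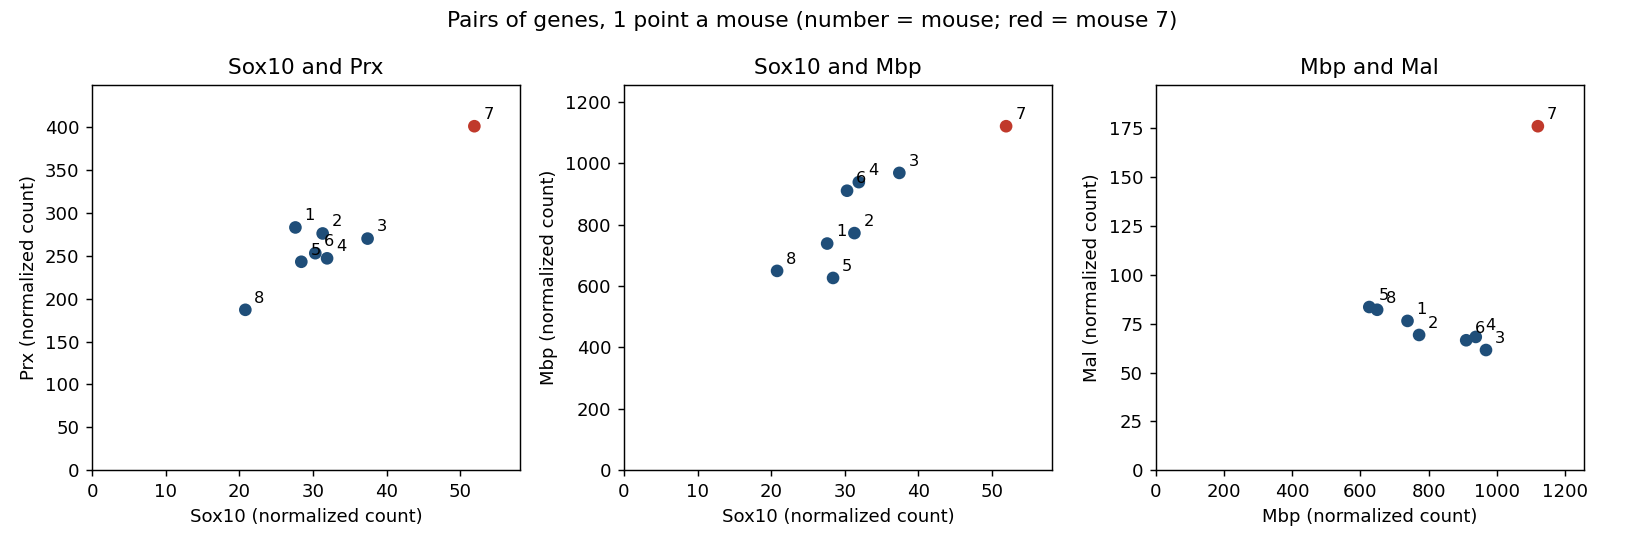
Normalized counts of Sox10 and Prx, Sox10 and Mbp, and Mbp and Mal (axes from 0), 1 numbered point a mouse and mouse 7 in red. Mouse 7 was highest on both axes of each panel, and mouse 8 was lowest for Sox10 and Prx.

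Other genes of the myelin sheath were examined as a list of 18, of which 16 passed the read filter. Of the 16, 7 were highest in mouse 7 (11.5% of all genes) and 4 of these exceeded the median 1.5-fold (both conditions held for 1.92% of all genes). Beyond the most abundant genes of each list, which a rule fixed, genes are named here and below after their values were seen. The 4 over 1.5-fold were Ugt8a, Fa2h, Pmp2 and Cldn19. Ugt8a, which adds galactose in the synthesis of the glycolipid galactosylceramide, reached 72.9 normalized counts in mouse 7 (2.75 times the median), with 15.8 to 41.4 in the others, and Fa2h, a fatty acid hydroxylase, reached 62.9 (2.46 times) with 14.3 to 29.7. The myelin lipid-binding gene Pmp2 was at 39.7 in mouse 7, 1.73 times the median, and the tight junction gene Cldn19 was at 78.4 in mouse 7, 1.51 times the median. Drp2 and Dag1, the partners of periaxin, were 1.09 and 1.10 times their medians in mouse 7. Cnp, which encodes a phosphodiesterase of non-compact myelin, had 197, 139, 169, 146, 161, 130, 188 and 141 normalized counts, and was highest in mouse 1. The laminin receptor subunit Itgb4 was at 123 normalized counts in mouse 7, under its median of 137. With library totals alone, 6 of the 16 were highest in mouse 7, where the share of all genes was 4.12%.

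Of 26 genes of Schwann cell identity and signalling, 19 passed the filter and 4 were highest in mouse 7 (11.5% of all genes), namely Foxd3, Egr2, Erbb2 and Plekha4, of which only Foxd3 exceeded the median 1.5-fold (23.2 normalized counts, 1.58 times). Both conditions held for 1.92% of all genes. Under scaling by totals 1 of the 19, Foxd3, was highest there, beside the 4.12% of all genes. The neuregulin receptor Erbb3 was lowest in mouse 7, at 98.2 normalized counts against 105 to 157 elsewhere. The 4 most abundant genes of the list, Art3, Yy1, Zeb2 and Ncam1, stood in mouse 7 at 4606, 1128, 761 and 610 normalized counts, beside medians of 4377, 1316, 867 and 501. At the node of Ranvier, 2 of 8 genes were highest in mouse 7, against the same 11.5%: Nfasc (neurofascin, 61.8 normalized counts, 1.74 times the median) and Gldn (gliomedin, 34.2, 1.73 times). The 4 most abundant of that list, Ank3, Mpp6, Cadm3 and Epb41l3, were not highest there. Which cells transcribe the most abundant genes of each list was not identified in this bulk muscle. Art3, Ank3 and Dag1 averaged 4744, 7596 and 5474 normalized counts, beside 32.5 for Sox10, and their share from nerve was not measured.

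**Figure D4:**
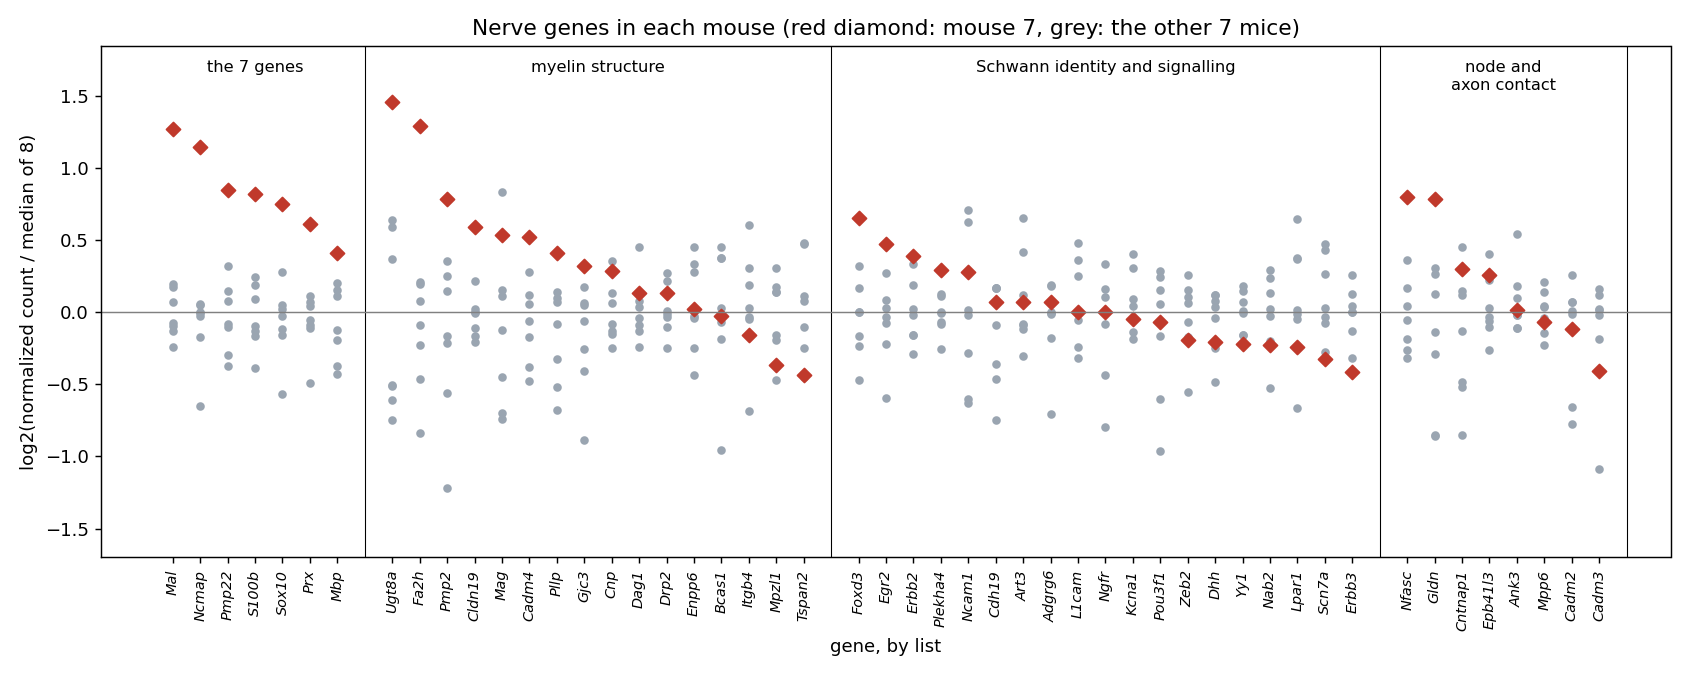
Log2 of the normalized count over the median of 8 mice (vertical axis) for the 7 genes and for the listed genes of myelin structure, Schwann identity and signalling, and node and axon contact that passed the read filter (horizontal axis), with mouse 7 as a red diamond and the other mice in grey. The 7 genes, Ugt8a and Fa2h were highest in mouse 7, while Itgb4 lay under its median and Erbb3 below every other mouse.

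The other compartments of nerve are set beside the 11.5% of all genes that were highest in mouse 7. Of 12 axon genes 3 passed the filter, Uchl1, Sncg and Stmn2, and none was highest in mouse 7, where they had 232, 77.3 and 35.3 normalized counts beside medians of 207, 80.6 and 38.6. Neurofilament transcripts, made mainly in neuronal cell bodies outside the muscle, averaged 0.405 (Nefl) and 2.44 (Nefm) normalized counts. Of 11 perineurial and endoneurial genes, 1 was highest in mouse 7, and their median log2 value there was -0.35 relative to the median mouse. The most abundant of them, Apod, was lowest in mouse 7, at 1314 normalized counts against 1731 to 3819, and Tjp1, Abca9 and Ptch1 were also under their medians there. Of 5 genes of repair Schwann cells, the state that follows nerve injury, 1 was highest in mouse 7 (Bdnf, 35.3 normalized counts against 15.1 to 32.1), while Jun was at 3872 and Runx2 at 18.8, inside the range of the other mice, and Gdnf, at 28.7, was below its median of 43.1. None of 7 genes of terminal Schwann cells and muscle spindles was highest there. The most abundant of that list, Cspg4, Myh7b, Herc6 and Piezo2, had 134, 114, 39.7 and 30.9 normalized counts in mouse 7, beside medians of 114, 72.8, 41.3 and 30.3.

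Markers of other cell types moved differently in mouse 7. The 7 Schwann and myelin genes had a median log2 value of 0.82 over the median mouse there. On the log2(normalized count + 1) scale the value was 0.80, and 0.65 with library totals. Macrophage genes stood at -1.01, tendon genes at -1.11, adipocyte genes at -0.56 and fibroblast genes at -0.44, and none of the 9, 6, 8 and 8 genes of these lists was highest in mouse 7. The summed macrophage level was 2516 normalized counts in mouse 7, the lowest of the 8, and up to 6279 in mouse 4. Endothelial genes were at -0.15, satellite cell genes at -0.15, smooth muscle and pericyte genes at 0.04 and fibre type genes at 0.06. Highest in mouse 7 were 5 of 15 genes of cholesterol synthesis, a pathway that supplies myelin membrane, and 2 of 11 genes of the neuromuscular junction, and the medians of these lists were 0.21 and 0.14. The share of all genes was 11.5%. With library totals 4 of the 15 and 2 of the 11 were highest in mouse 7, beside 4.12% of all genes, and the medians were 0.03 and 0.08. The junction gene Colq, which encodes the collagen tail of acetylcholinesterase and is named after its values were seen, had 414, 326, 729, 427, 356, 617, 2317 and 1579 normalized counts. It stood at 4.44 times its median in mouse 7, the highest ratio of any listed gene there, and was next highest in mouse 8. Mouse 8 was also below the median mouse in these lists (-2.01 for tendon, -0.96 for adipocytes, -0.60 for fibroblasts, -0.68 for macrophages) with a median of -0.29 for the Schwann and myelin genes, of which Mal and S100b lay above their medians. The part of tissue composition in the values of mouse 7 was not tested. Scaling by library totals lowered all genes of mouse 7 by a median of 0.13 on the log2 scale. It turned the medians of the fibre type, smooth muscle and node of Ranvier genes negative in mouse 7, at -0.02, -0.01 and -0.06.

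**Figure D5:**
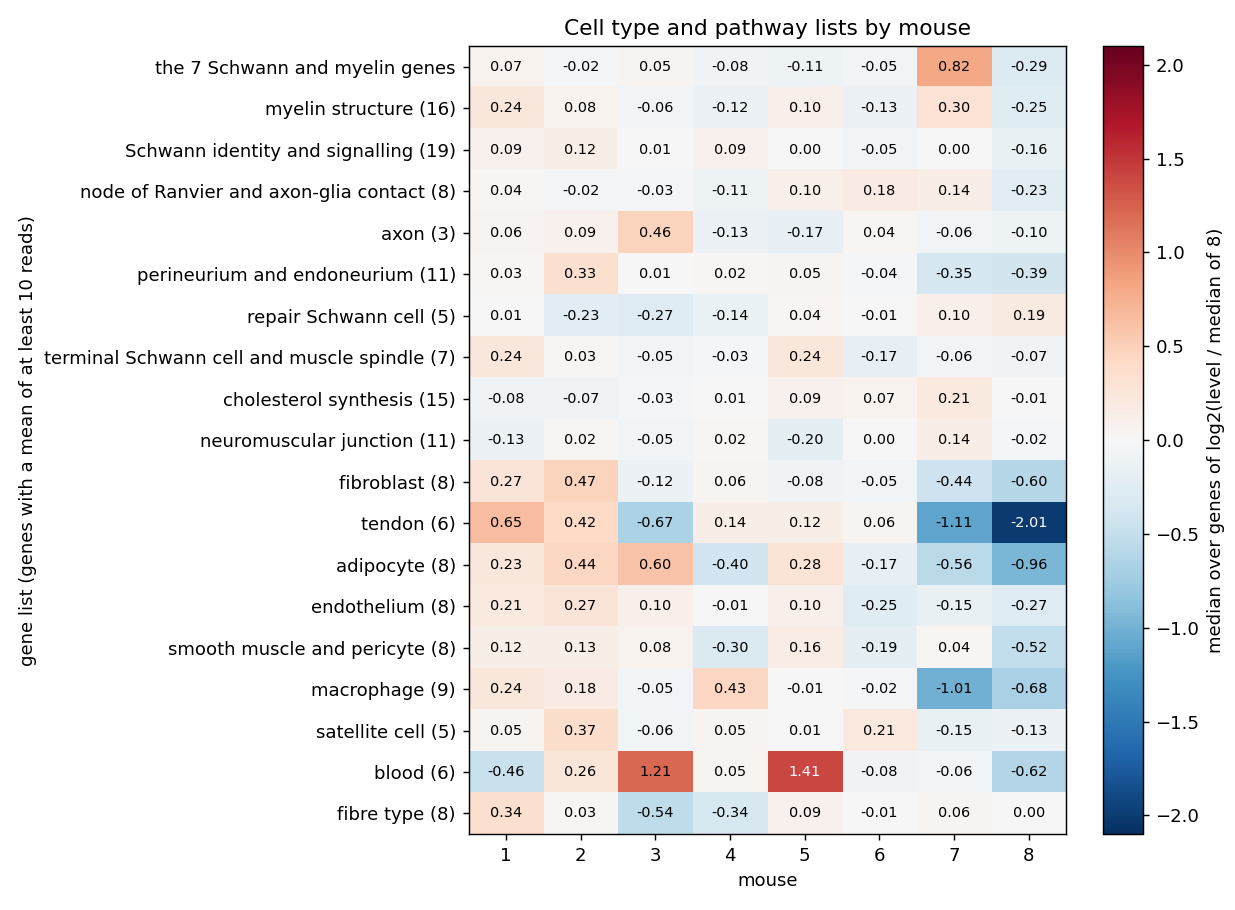
Median over the genes of each list (rows, with the number of genes that passed the read filter) of log2 level over the median of 8 mice, for mice 1 to 8 (columns). In mouse 7 the 7 Schwann and myelin genes were at 0.82 while macrophage (-1.01) and tendon (-1.11) genes were low, and in mouse 8 all 3 were below 0.

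Over the 7 other mice, the mean z-score of the 7 genes, taken as a common score, was highest in mice 3 (0.44) and 1 (0.42) and lowest in mouse 8 (-0.66). In these mice it varied along with several non-muscle lists. The median r to the score was 0.86 for adipocyte genes, 0.83 for smooth muscle and pericyte genes, 0.70 for endothelial genes and 0.70 for perineurial and endoneurial genes, against -0.02 for all genes and -0.11 for fibre type genes. Of the other nerve lists, myelin structure had 0.61, the 3 axon genes 0.60, node of Ranvier 0.23, Schwann identity and signalling 0.01, terminal Schwann cell and spindle -0.02 and repair Schwann cell -0.37. Within the Schwann identity list the values ran both ways, from 0.94 for Scn7a (rho = 0.86), a channel of non-myelinating Schwann cells, and 0.87 for Adgrg6 (rho = 0.86), a receptor needed for myelination, to -0.45 for Egr2 (rho = -0.32) and -0.57 for Ncam1 (rho = -0.64). Leaving out mouse 8 as well gave medians over 6 mice of 0.70 for adipocyte, 0.66 for smooth muscle, 0.62 for endothelial and 0.31 for perineurial genes, and the tendon and macrophage medians, 0.57 and 0.55 over 7 mice, became -0.19 and -0.15. The median of myelin structure was then 0.47, of axon genes 0.64, of node genes 0.09, of Schwann identity genes 0.00, of terminal Schwann cell and spindle genes -0.13 and of repair Schwann cell genes 0.14, so that the last changed sign. With all 8 mice the same lists had medians of -0.15 (adipocyte), 0.22 (smooth muscle), -0.10 (endothelium) and -0.18 (perineurium and endoneurium). Of the nerve lists, myelin structure then had 0.54, axon 0.09, node 0.24 and Schwann identity 0.03. Terminal Schwann cell and spindle genes had -0.01, and repair Schwann cell genes 0.22, of opposite sign to their value over 7 mice. The score was a loose one in the 7 mice, since its genes had a mean pairwise r of 0.03. The spread of Sox10, Mal, Ncmap and S100b there was no larger than counting error, a comparison not made over all genes.

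By likeness to the score over 8 mice, 71 of 16491 genes outside the 7 (0.431%) reached r = 0.8. Of these, 3 were in the nerve lists: Nfasc (r = 0.88), Fa2h (0.84) and Cldn19 (0.80). The 10 most alike were Mid1-ps1 (0.95), Cdk17, Agk, Ggt7, Fam222b, Extl2, Recql5, Tiparp, Gm9169 and Emc8 (0.89), and none was in a nerve or cell type list. All 10 were highest in mouse 7. The score was 2.0 there and -0.81 to 0.09 in the other mice, so r favours genes high in mouse 7. Spearman's rho of the 10 ran from 0.40 (Mid1-ps1) to 0.90 (Tiparp). Without mouse 7 their r ran from 0.19 (Gm9169) to 0.77 (Agk). Mid1-ps1, a pseudogene of Mid1, was 3.66 times its median in mouse 7, and the other 9 between 1.18 and 1.76 times. Reads from Mid1 and its pseudogene may be shared, since the handling of multiply mapped reads is not given in the sources used here. For single genes, those most alike were Gm27021 for Sox10 (r = 0.96), Phtf1 for Pmp22 (0.98), Gm6085 for Prx (0.93), Ciao2b for Mbp (0.96), Dusp15 for Mal (0.93), Mphosph6 for Ncmap (0.94) and Ggt7 for S100b (0.97). Their rho ran from 0.21 (Mphosph6) to 0.98 (Phtf1), and r without mouse 7 from 0.51 (Dusp15) to 0.95 (Gm27021 and Ciao2b).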

How the data were processed

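Poly-adenylated RNA of 8 muscles, 1 per mouse, was sequenced. The authors trimmed and checked reads with fastp and FastQC, aligned them with STAR to GRCm38.p6, counted them per Ensembl gene with GenomicAlignments, and divided counts by DESeq2 size factors; the deposited values are this signal, given as normalized counts. Annotation release and strand setting are not given in the sources used here. Every deposited value was a whole multiple of 1 step per library (100% within 0.01 reads), so reads were recovered. Symbols, coordinates and exon lengths came from GENCODE M21 (55227 of 55487 rows found). Pairs of libraries differed beyond sampling noise (chi-square per degree of freedom 13.6 to 98.5).

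Genes with a mean of at least 10 reads (16498) were used, with log2(normalized count + 1), in Python 3.11.15 (numpy 2.4.6, pandas 2.3.3, scipy 1.17.1, matplotlib 3.10.9). TMM factors came from edgeR 4.0.16 in R 4.3.3. The score is the mean over the 7 genes of z-scored log2 values. With 1 condition no groups were compared. The functions were tested on simulated data. The genes and lists were chosen with earlier results of these data known. Named genes are the 7, the 4 most abundant of each nerve list, and the 10 and 3 most like the score and each gene. Of the 3 for each gene, the first is named. A few others are marked where they appear. Other groups of the study were not analysed here, and some genes of the myelin list are not reported here.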

Additional observations from a re-analysis of the deposited data

Results flagged for a closer look

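A mouse was marked when its distance to the next mouse, divided by the range of all 8, exceeded Dixon's 95% limit for 8 samples. Of 76 values examined 22 were marked, where 1 in 20 by chance would be 3.8. The 76 hold genes listed or picked for likeness with mouse 7 high in view, so the number is no evidence about them. Among all 16498 genes, 6.07% had a mouse marked on either side and 0.485% had mouse 7 marked as highest.

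Mouse 7 was marked as highest for Mal (0.807), Ncmap (0.744), S100b (0.581), Prx (0.549) and Pmp22 (0.537), and for the score of the 7 genes (0.680). Sox10 and Mbp were under the limit. Of the genes named from the other lists, Fa2h (0.683), Ugt8a (0.551) and Cldn19 (0.536) were marked for mouse 7 and Ank3 (0.606) for mouse 5. Of the genes most like the score or 1 of the 7, mouse 7 was marked for Mid1 (0.836), Mid1-ps1 (0.821), Dusp15 (0.689), Gm9169 (0.645), Gm8641 (0.634), Cdk17 (0.619), Fam222b (0.613), Ggt7 (0.604), Extl2 (0.576), Mphosph6 (0.573), Phtf1 (0.553) and Ppp2r2a (0.531).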

How the results depend on the processing

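The mean pairwise r of 0.68 was 0.34 as Spearman's rho. It was 0.64 to 0.70 with TMM factors, library totals, a pseudocount of 5, or trends of GC content and exon length removed. A minimum of 10 reads in every library kept all 7 genes, which have at least 19, so its value of 0.68 was fixed in advance. Leaving out 1 mouse at a time gave 0.03 (without mouse 7) to 0.73. All 7 genes were highest in 1 library with TMM factors and with the trends removed, 6 with library totals and 6 with unscaled reads. With 1 mouse left out the number was 3 (without mouse 7) to 7. The number of genes with a coefficient of variation of at least 30%, 3 of 7, was 2 with library totals. It reached 0 when mouse 7 was dropped and 5 when mouse 3 was. The share of all genes was 16.5% over 8 mice with the deposited scaling and was not calculated for these other settings, so these numbers lack a background. The share of all genes highest in mouse 7 was 4.12% with library totals, where the cause was not tested, and 10.6 to 14.2% otherwise. Of the 10 genes most like the score, 1 was shared with the list by Spearman's rho and 0 with the list made without mouse 7. Removing trends, unscaled reads, and leaving out mice 7 or 7 and 8 from the lists were chosen after seeing the data. Sox10, S100b and Ncmap rest on few reads (19 to 62), which limits single values. No paired analysis was possible because the 8 libraries form a single group, with no other group to pair them with.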
